A study of Mus musculus with 6 samples.

Results

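The genes described here are 40 genes of the cell cycle and of proliferation, chosen by name from the 44713 genes whose reads were counted in pancreatic islets. They comprise 5 genes for the D-type cyclins and their kinases, 14 genes that act at the entry into and during DNA replication (G1/S), 16 genes that act from late replication to the end of mitosis (G2/M), and 5 genes for inhibitors of cyclin-dependent kinases. RNA-seq libraries were made from rRNA-depleted total RNA of islets isolated by collagenase digestion and a density gradient, from 3 mice of the db/db and 3 of the db/m genotype. The study is concerned with β-cell function and proliferation in type 2 diabetes, and the question addressed here is whether cell cycle genes differed between islets of diabetic and control mice.

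The db/db mice carry the labelled genotype Lepr-/-. Without a functional receptor for leptin these mice overeat, grow obese and develop diabetes. Their controls were db/m littermates, labelled wild type. All mice were male, 10 weeks old and kept on a normal diet. The sample labels name the strain as C57BL/6, whereas the methods of the study name the BKS strain. The db mutation is inherited and present in every tissue, not in the islets alone.

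To divide, a resting cell makes D-type cyclins, which activate Cdk4 and Cdk6. These kinases phosphorylate the retinoblastoma protein and thereby release E2F transcription factors, which switch on the genes for DNA replication. Later, cyclins A and B with Cdk1 drive the cell into mitosis, while proteins such as p21, p27 and p57 hold the kinases in check. Adult β cells divide rarely, and in mice cyclin D2 is the D-type cyclin on which the growth of β-cell mass after birth depends most.

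Library totals lay between 15641797 and 20614531 counts, and a floor of 3 counts corresponded to 0.110 to 0.241 CPM (counts scaled to a common library size with edgeR's TMM factors). The TMM factors ranged from 0.605 in db/db 1 to 1.75 in db/m 1, the library that stood apart. The label "islet" was compared with marker genes. A list of 28 acinar genes, which mostly encode digestive enzymes and are no islet genes, took 48.7 to 69.5% of all counts. The 12 β-cell marker genes took 0.152 to 4.40%. Summed over the β-cell list, the level was 2513, 6511 and 5332 CPM in db/db 1, 2 and 3 and 25280, 7733 and 7993 CPM in db/m 1, 2 and 3. The groups did not overlap, and 10 of its 12 genes had an unadjusted p under 0.05 in edgeR, each lower in db/db. Summed acinar levels were higher in each db/db mouse than in any db/m mouse, with 1 of 28 genes past that threshold. No gene of the marker lists was at 0 in all 6 mice. In such bulk RNA, fewer cells of a type and less RNA per cell cannot be told apart.

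All 40 genes were found in the count table, and 23 of them passed edgeR's default filter against sparse genes (about 10 counts or more in 3 mice), so that they could be tested. The 23 were all 5 genes of the D-type cyclin group, 13 of 14 G1/S genes, 2 of 16 G2/M genes and 3 of 5 inhibitor genes. Detection thus differed by phase. On the scale of CPM per kb of exon, which allows levels of different genes to be compared, the median gene stood at 2.89 in the D-type cyclin group, 0.464 in the G1/S group, 0.362 among the inhibitors and 0.0717 in the G2/M group. The most abundant G2/M gene, at 0.167 CPM per kb over the 6 mice, was below the median of the G1/S genes.

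**Figure D1:**
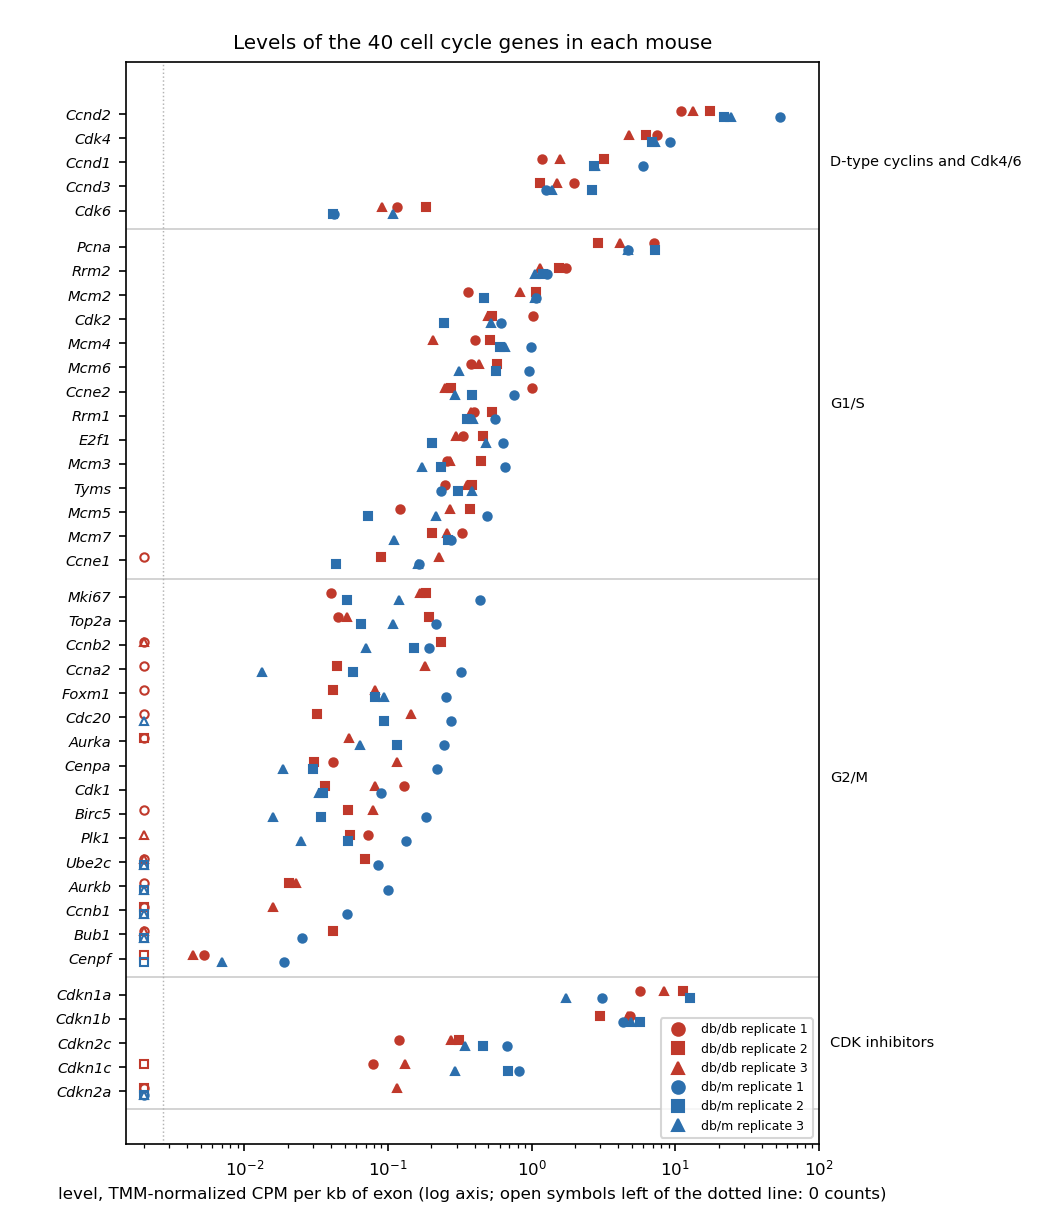
Each point is the level of a gene in a mouse, in TMM-normalized CPM per kb of exon on a log axis, for db/db (red) and db/m (blue) mice, with open symbols at the left for 0 counts. Cyclin D2 stands at the top with 10.96 to 53.9 CPM per kb, whereas all 16 G2/M genes lie at or below 0.438 in each mouse and 12 of them have a mouse with 0 counts.

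Between db/db and db/m islets, none of the 23 tested genes passed an adjusted p of 0.05 in edgeR's quasi-likelihood test, compared with 79 of all 12760 tested genes (0.619%). With DESeq2 the count was 1 gene, Ccnd2, where 5.55% of all genes with an adjusted p were called, and with every gene of at least 1 count in edgeR it was again 1 of the 40 genes, Ccnd2, where 3.78% of all genes were called. At an unadjusted p under 0.05, 1 gene was lower in db/db islets (Ccnd2), compared with 9.89% of all tested genes, and 0 genes were higher, compared with 5.04%. The levels in the 3 db/db mice were all below those of the db/m mice for 3 genes (Ccnd2, Mcm4 and Cdkn2c), a share close to the 12.6% of all tested genes, and all above them for 0 genes, compared with 8.53%. The log2 fold change (db/db against db/m) was below zero in 16 and above zero in 7 genes. This split was 21 to 2 on library size alone, which lowered the median of all tested genes to -0.59, and 9 to 14 without db/m 1. Its median was -0.19, against -9.0e-04 for all tested genes. A p that misses the threshold does not show that a gene's levels were the same in both groups, and intervals of the log2 fold change (95%, by the normal approximation from the standard error) are therefore given below. With so few mice these intervals are too narrow. Those of Ccnd1 (-1.79 to -0.09) and Mcm4 (-1.92 to -0.06) lie wholly below zero, although the unadjusted p from edgeR was 0.0589 and 0.0650.

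**Figure D2:**
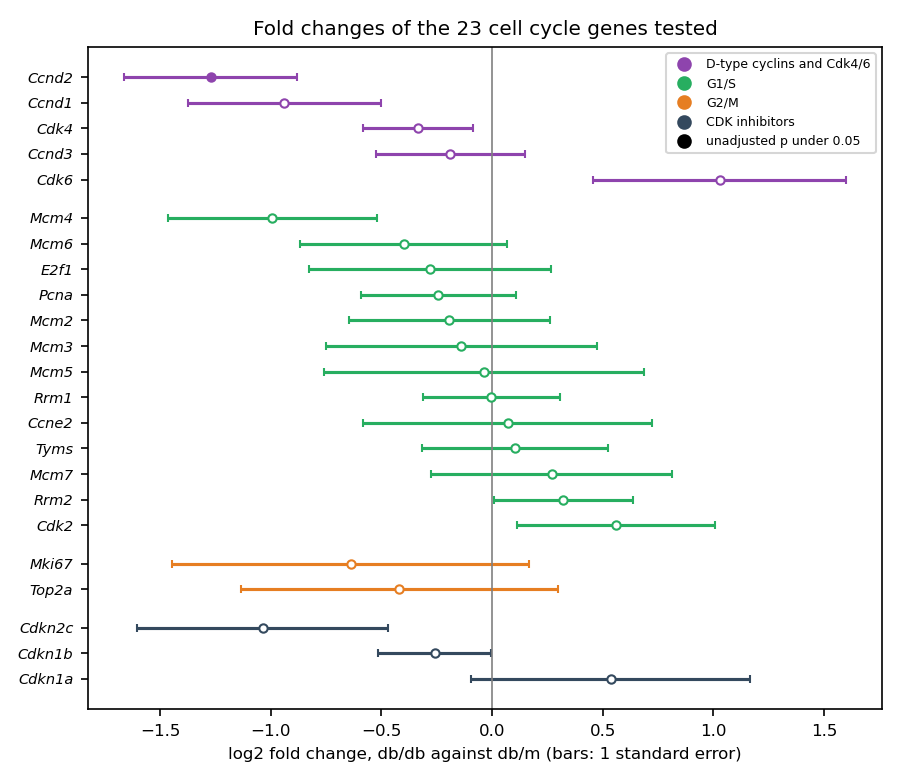
The log2 fold change of each of the 23 tested genes, db/db against db/m, is plotted with a bar of 1 standard error (n = 3 mice per group), coloured by role. Ccnd2 at -1.27 is the filled point (unadjusted p under 0.05), the G1/S genes spread from -0.99 to 0.56, and Cdk6 at 1.03 is the farthest to the right.

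Among the D-type cyclins, which couple growth signals to the cycle, Ccnd2 (cyclin D2) was the most abundant of the 40 genes per kb of exon. Its level was 103, 163 and 125 CPM in db/db 1, 2 and 3, and 507, 207 and 230 CPM in db/m 1, 2 and 3. The 3 db/db mice lay below the 3 db/m mice, and db/m 1 was far above the other mice. The mean was 130 ± 30.6 CPM (SD, n = 3) in db/db and 315 ± 167 CPM (SD, n = 3) in the db/m group. The log2 fold change of -1.27, with a standard error of 0.39, had an unadjusted p of 0.00971 and an adjusted p of 0.175 from edgeR. The difference thus passed an unadjusted threshold and failed the correction over all tested genes. It passed the correction in DESeq2 (adjusted p = 0.0274) and in edgeR when every gene with at least 1 count was tested (adjusted p = 0.0255), within a range of 0.0255 to 0.737 over the alternatives. An unadjusted p under 0.05 was kept in 13 of the 15 alternatives, and without db/m 1 the log2 fold change was -0.72 (unadjusted p = 0.0290). The exact permutation test gave p = 0.1 (two-sided), the smallest that 3 mice against 3 allow. Ccnd2 spans chr6:127125162-127152193 of GRCm38 (minus strand), and 7.86% of its exon length is overlapped by 9330179D12Rik and Gm43126 on the other strand. Whether the authors' counting used strand is not given in the sources used here.

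The level of Ccnd2 moved with the summed level of the β-cell markers. Most of that sum was Ins1, Ins2 and Iapp, with Ins2 alone at 1770 of 2513 CPM in db/db 1 and 14910 of 25280 CPM in db/m 1. Single markers differed from one another, with log2 fold changes of -4.49 for Slc30a8 and -3.37 for Nkx6-1, but -1.23 for Ins2 and -0.78 for Glp1r. By Slc30a8 and by Nkx6-1, db/m 2 stood above db/m 3. The 6 mice stood in the same order by Ccnd2 and by the summed β-cell level, from db/db 1 at the bottom to db/m 1 at the top, and Ccnd2 was the only one of the 23 tested genes with that order. The share of all tested genes with that order was not determined, so nothing particular to Ccnd2 is read from it. Expressed per 1000 counts on β-cell markers, Ccnd2 had 41.0, 25.1 and 23.4 counts in db/db 1, 2 and 3 and 20.1, 26.7 and 28.8 counts in db/m 1, 2 and 3. On this scale the groups overlapped, with a mean of 29.8 ± 9.74 (SD, n = 3) in db/db and 25.2 ± 4.57 (SD, n = 3) in db/m mice (exact permutation test, two-sided, p = 0.6). With the β-cell marker score as a covariate, an alternative chosen after seeing the data, the log2 fold change of Ccnd2 was 0.41 (unadjusted p = 0.334), and with the acinar marker score it was -0.50 (unadjusted p = 0.0697). The β-cell scores of the groups did not overlap, so that in this fit score and group can hardly be separated.

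**Figure D3:**
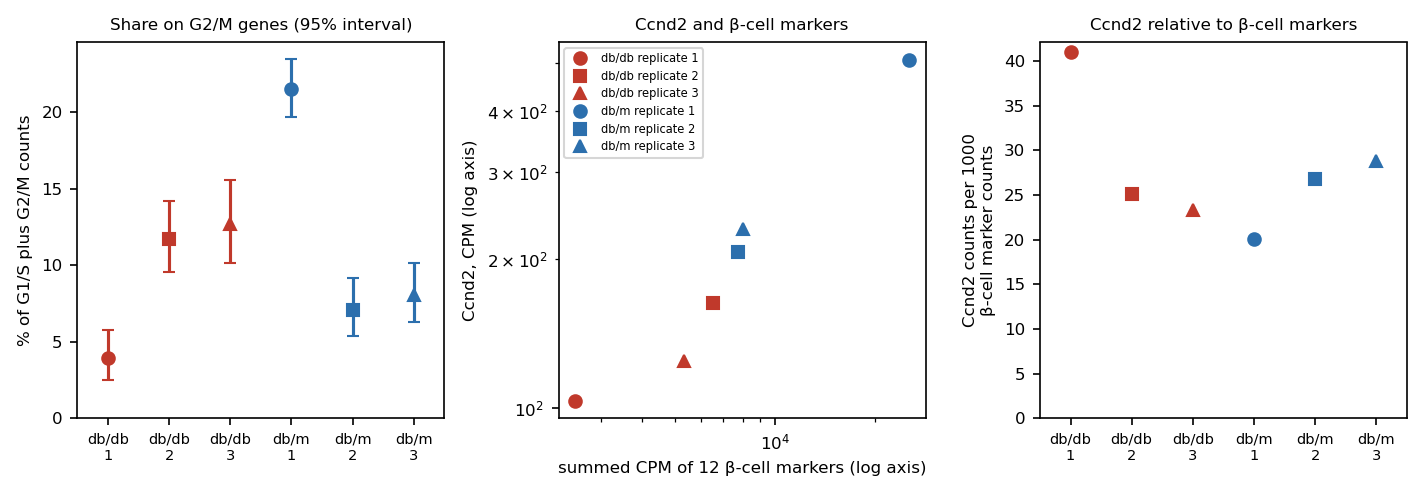
Left, the share of G2/M counts among G1/S plus G2/M counts in each mouse with its exact 95% interval, where db/m 1 is highest at 21.5% and db/db 1 lowest at 3.92%. Middle, Ccnd2 against the summed level of 12 β-cell markers in CPM (both log axes), and right, Ccnd2 per 1000 β-cell marker counts, where the db/db mice range from 23.4 to 41.0 and the db/m mice from 20.1 to 28.8.

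Ccnd1 (cyclin D1) was at 5.54, 15.01 and 7.40 CPM in db/db 1, 2 and 3 and at 27.9, 12.7 and 13.1 CPM in db/m 1, 2 and 3. The groups overlapped, because db/db 2 lay above db/m 2 and 3. The log2 fold change of -0.94 (standard error 0.44) had an unadjusted p of 0.0589 and an adjusted p of 0.354 from edgeR. It crossed an unadjusted 0.05 in 6 of the 15 alternatives and was -0.44 without db/m 1, -0.12 with the acinar score and 0.97 with the β-cell score as a covariate. Per 1000 β-cell marker counts, Ccnd1 stood at 1.97 ± 0.503 (SD, n = 3) in db/db and 1.46 ± 0.307 (SD, n = 3) in the controls. The groups overlapped (exact permutation test on log2 ratios, two-sided, p = 0.3). LTO1 on the other strand overlaps 23.4% of the exon length of Ccnd1. Per kb of exon, cyclin D2 was at 13.9 ± 3.25 CPM and cyclin D1 at 1.98 ± 1.07 CPM in db/db islets (SD, n = 3), and at 33.5 ± 17.8 and 3.80 ± 1.85 CPM in db/m islets.

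The other genes of this group had small or uncertain differences. Ccnd3 (cyclin D3) had 13.5 ± 3.59 CPM in db/db and 15.4 ± 6.74 CPM in db/m mice (SD, n = 3), with a log2 fold change of -0.19 and an interval from -0.85 to 0.48. Cdk4, the kinase partner of the D-type cyclins, had 19.98 ± 4.36 CPM in db/db and 25.2 ± 4.14 CPM in db/m mice (SD, n = 3), and its log2 fold change of -0.33 had an interval from -0.82 to 0.15. Of the exon length of Cdk4, 19.7% is overlapped by Tspan31 on the other strand. Cdk6, the related kinase, was at 1.61, 2.57 and 1.28 CPM in db/db 1, 2 and 3 and 0.587, 0.582 and 1.52 CPM in db/m 1, 2 and 3. Its log2 fold change was the highest of the 23 tested genes, 1.03, with an interval from -0.09 to 2.15 (unadjusted p = 0.104, adjusted p = 0.443 from edgeR), and db/m 3 lay within the range of the db/db mice. Without db/m 3 the unadjusted p was 0.0292, at a log2 fold change of 1.64. Per kb of exon, Cdk6 at 0.130 CPM in db/db and 0.0640 CPM in db/m mice stood far below Cdk4 at 6.15 and 7.75 CPM.

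Of the 13 tested G1/S genes, 8 had a log2 fold change below zero and 5 above, and the median was -0.04. None passed an unadjusted p of 0.05 in edgeR. Summed over the 14 G1/S genes, the level was 47.2, 41.4 and 36.7 CPM in db/db 1, 2 and 3 and 52.3, 40.4 and 40.2 CPM in db/m 1, 2 and 3. The sums overlapped between the groups, with a mean of 41.7 ± 5.28 CPM (SD, n = 3) in db/db and 44.3 ± 6.91 CPM (SD, n = 3) in db/m mice. The median depended on the scaling, since on library size alone it was -0.73, where that of all tested genes was -0.59. Without db/m 1 it was 0.25.

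Mcm2 to Mcm7 encode the 6 subunits of the helicase that opens DNA at replication origins. Mcm4 was the only G1/S gene whose groups did not overlap, with 1.45, 1.85 and 0.740 CPM in db/db 1, 2 and 3 and 3.56, 2.16 and 2.33 CPM in db/m 1, 2 and 3. With a standard error of 0.47, its log2 fold change of -0.99 had an unadjusted p of 0.0650 and an adjusted p of 0.369 from edgeR. The other subunits of the complex lay closer to zero. The log2 fold change was -0.40 for Mcm6, -0.19 for Mcm2, -0.14 for Mcm3, -0.04 for Mcm5 and 0.27 for Mcm7, and the groups overlapped for these 5 genes. Their counts were low, from 5 to 202 per mouse, and 23.3% of the 50-base stretches of Mcm7 occur in other genes, among them Gm5487 and Ap4m1. Without db/m 1, the log2 fold change was 0.70 for Mcm3, 0.84 for Mcm5 and 0.10 for Mcm6.

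The most abundant G1/S gene per kb of exon was Pcna, the clamp that holds DNA polymerase on its template, at 4.70 ± 2.16 CPM per kb in db/db and 5.55 ± 1.46 CPM per kb in db/m mice (SD, n = 3). Its levels of 17.02, 6.94 and 9.89 CPM in db/db 1, 2 and 3 enclosed those of db/m 1 and 3 (11.3 CPM each) and nearly that of db/m 2 (17.4 CPM), and the log2 fold change was -0.24 with an interval from -0.93 to 0.44. Pcna shares 19.1% of its 50-base stretches with Pcna-ps2, so that its counts may hold reads of this copy. Rrm1 and Rrm2, the subunits of ribonucleotide reductase, had log2 fold changes of 0.00 (interval -0.61 to 0.60) and 0.32 (interval -0.30 to 0.94). Tyms, which makes the thymidylate for DNA, stood at 0.10, with an interval from -0.72 to 0.93. The levels of Rrm2 ranged from 3.16 to 4.82 CPM in db/db and from 2.92 to 3.56 CPM in db/m mice.

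Among the regulators of replication entry, Cdk2, the kinase of cyclins E and A, had 4.24 ± 1.82 CPM in db/db and 2.85 ± 1.19 CPM in db/m mice (SD, n = 3), and its log2 fold change of 0.56 had an interval from -0.32 to 1.44. E2f1, a transcription factor of replication genes, had 1.14 ± 0.261 CPM in db/db and 1.38 ± 0.681 CPM in db/m mice, with a log2 fold change of -0.28 and an interval from -1.35 to 0.79. Ccne2 (cyclin E2) had 44, 16 and 13 counts in db/db 1, 2 and 3 and 72, 23 and 19 counts in db/m 1, 2 and 3, and its log2 fold change of 0.07 was -0.86 without db/db 1. Ccne1 (cyclin E1) had 0, 4 and 9 counts in db/db 1, 2 and 3 and 12, 2 and 8 counts in db/m 1, 2 and 3, and was not tested.

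The G2/M genes were near the limit of detection in these islets. Their 16 genes together held 24, 92 and 79 counts in db/db 1, 2 and 3 and 391, 53 and 65 counts in db/m 1, 2 and 3. The library db/m 1 stood apart: it held reads of all 16 genes, whereas 10, 3 and 4 of the genes were at 0 counts in db/db 1, 2 and 3, and 5 were at 0 in each of db/m 2 and 3. A count of 0 allows a level of up to 0.110 to 0.241 CPM, depending on the library. For 13 of the 16 genes db/m 1 had the highest CPM of the 6 mice. Summed over the list, the levels of db/db mice (4.25 ± 2.01 CPM, SD, n = 3) and db/m mice (6.99 ± 6.38 CPM, SD, n = 3) overlapped, and db/m 2 and 3 alone had a mean of 3.303 CPM, below the db/db mean.

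In db/m 1, the summed levels of several marker lists were also at their highest. Its summed leukocyte level was 121 CPM, compared with 8.34 to 103 CPM in the other 5 mice, and its summed endothelial level was 58.5 CPM, compared with 16.2 to 35.3 CPM. Of the leukocyte sum in db/m 1, Cd74 alone made up 64.6 CPM. Csf1r and Cd68 were also highest in db/m 1. In contrast, Ptprc was highest in db/db 3 (19.6 CPM, against 13.8 CPM in db/m 1) and Lyz2 in db/db 1 (49.5 CPM, against 16.5 CPM). Of the endothelial list, Kdr, Tek, Tie1, Plvap, Esam and Egfl7 were highest in db/m 1. The endothelial marker Pecam1 was highest in db/db 3 (10.4 CPM, against 8.26 CPM in db/m 1). Cdh5 was highest in db/db 2 (3.35 CPM, against 3.16 CPM in db/m 1), and Flt1 and Emcn in db/m 3. The non-β endocrine list was at 1946 CPM in db/m 1 and at 307 to 878 CPM in the other mice. The stromal list was highest in db/db 3 (85.7 CPM, against 72.5 CPM in db/m 1), and acinar genes were lowest in db/m 1, at 48.7% of its counts. The duct list was also lowest in db/m 1, at 295 CPM, compared with 364 to 439 CPM in the other mice. The part of these cell types in the G2/M counts was not tested.

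The balance between the phases was compared within each library, where scaling between libraries cancels. G2/M genes held 3.92% (95% exact Clopper-Pearson interval 2.53 to 5.78%) of the G1/S plus G2/M counts in db/db 1, 11.7% (9.57 to 14.2%) in db/db 2 and 12.7% (10.2 to 15.5%) in db/db 3. In db/m 1, 2 and 3 the share was 21.5% (19.7 to 23.5%), 7.10% (5.36 to 9.18%) and 8.05% (6.26 to 10.1%). The bounds describe counting error only. Within each group the shares spread over more than the distance between the group means, as db/db 2 and 3 lay above db/m 2 and 3, db/db 1 lay below all mice and db/m 1 above all. The means were 9.44 ± 4.80% (SD, n = 3) in db/db and 12.2 ± 8.07% (SD, n = 3) in the db/m group.

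Of the G2/M genes, Mki67 and Top2a could be tested. Mki67 encodes Ki-67, a marker of cycling cells, and had 5, 31 and 25 counts in db/db 1, 2 and 3 and 120, 9 and 22 counts in db/m 1, 2 and 3. Its log2 fold change was -0.64 with an interval from -2.22 to 0.94 (unadjusted p = 0.447, adjusted p = 0.744 from edgeR), and without db/m 1 it was 0.65. Top2a, the topoisomerase that untangles DNA before mitosis, had 5, 29 and 7 counts in db/db 1, 2 and 3 and 53, 10 and 18 counts in db/m 1, 2 and 3. Its log2 fold change was -0.42 with an interval from -1.83 to 0.99. Without db/db 2 it was -1.41, and without db/m 1 it was 0.21. Both intervals are wide and reach to either side of zero.

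The other 14 G2/M genes held 218 of their counts in db/m 1, which is 58.9% of those in all 6 mice. Foxm1, the transcription factor of the mitotic programme, had 0, 4 and 7 counts in db/db 1, 2 and 3 and 40, 8 and 10 counts in db/m 1, 2 and 3. Cyclin A2 (Ccna2) had 0, 3 and 11 counts against 36, 4 and 1 counts, and Cenpa, the histone of the centromere, had 3, 3 and 10 counts against 35, 3 and 2 counts. In these 3 genes db/m 1 was the highest mouse, and the CPM of the groups overlapped. Aurka, a kinase of the spindle poles, had 0, 0 and 2 counts in db/db 1, 2 and 3 and 17, 5 and 3 counts in db/m 1, 2 and 3, but no order of the groups is read, since the 2 counts of db/db 3 and the 3 counts of db/m 3 are at or under the floor. When every gene with at least 1 count was tested in edgeR, the unadjusted p was 0.0609 for Aurka and 0.0722 for Foxm1.

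The remaining mitotic genes gave too few reads for a comparison. Cdk1, the mitotic kinase, had 8, 3 and 6 counts in db/db 1, 2 and 3 and 12, 3 and 3 counts in db/m 1, 2 and 3, a ratio of db/db to db/m of 1.35 after scaling by library (95% interval 0.653 to 2.77, counting error only). Birc5 (survivin), the checkpoint kinase Bub1, the kinases Aurkb and Plk1, cyclins B1 and B2 (Ccnb1 and Ccnb2), Cenpf of the kinetochore, and Ube2c and Cdc20, which act with the anaphase-promoting complex, had between 6 and 27 counts over all 6 mice. Ccnb1 shares 23.4% of its 50-base stretches with copies such as Ccnb1-ps, and 22.8% of the exon length of Ube2c is overlapped by Tnnc2.

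**Figure D4:**
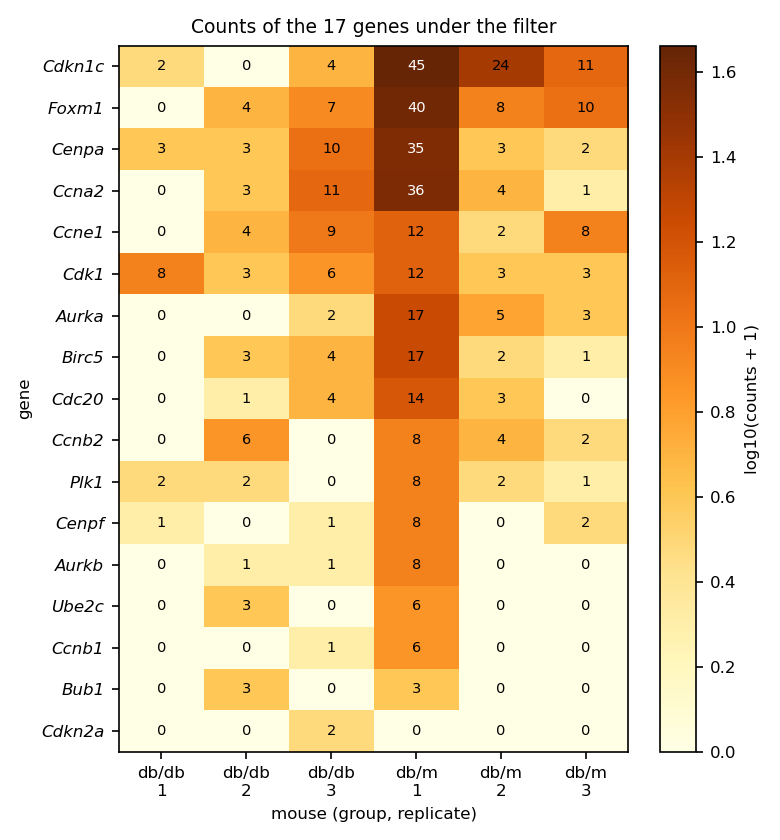
Raw counts of the 17 genes that did not pass the filter are printed in each cell, by gene and mouse, with colour for log10(counts + 1). The column of db/m 1 is darkest for most mitotic genes, such as Foxm1 with 40 and Cenpa with 35 counts, whereas Cdkn1c has 45, 24 and 11 counts in the 3 db/m mice and at most 4 in a db/db mouse.

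The promoters of the G1/S and G2/M genes were also compared. Whether their motifs bear on the different levels of detection in these islets was not tested. Promoters of 300 bases (250 before and 50 after the annotated start, RefSeq, GRCm38.p6) were at hand for 32 of the 40 genes, and were not at hand for Ccnd1, Ccnd2, Ccna2, Ccne2, Aurkb, Foxm1, Mcm4 and Cdkn1c. Searched on both strands were the CHR element, which is bound by the MuvB complex at genes of late cycle phases, the E2F motif and the CCAAT box. The letters TTTGAA and the variant spelled TTCGAA were counted as a CHR. TTCCCGC counted as an E2F motif, as did the letters TTGGCGC and likewise the letters TTCGCGC. A CHR was found in 11 of 13 G2/M promoters (84.6%), in 2 of 13 G1/S promoters, which belong to 12 genes (15.4%), and in 19.2% of all 32851 promoters. An E2F motif was found in 3 of 13 G2/M promoters (23.1%), in 7 of 13 G1/S promoters (53.8%) and in 8.07% of all promoters. CCAAT stood in 92.3% of G2/M and 76.9% of G1/S promoters, against 37.4% of all, and in Mcm7 and Ccnb1 it shares bases with an E2F motif. A match of letters is a description and not a binding site.

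To show this difference, windows of 30 bases are given for 5 G2/M genes with a CHR in capitals. Each is written 5′ to 3′ on the strand of its gene. TTCAAA is TTTGAA read on the other strand.
Mki67, chr7:135716460-135716489: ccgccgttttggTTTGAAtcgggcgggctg
Top2a, chr11:99024195-99024224: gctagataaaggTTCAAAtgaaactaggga
Cdk1, chr10:69352910-69352939: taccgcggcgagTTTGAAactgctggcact
Ube2c, chr2:164769888-164769917: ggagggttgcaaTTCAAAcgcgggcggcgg
Cdc20, chr4:118437344-118437373: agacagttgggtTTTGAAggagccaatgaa
These CHR matches begin 15 to 98 bases before the start, and that of Cdc20 is followed by a CCAAT box within the same window. Mki67, Top2a and Cdk1 hold further CHR matches that are not shown. In Cenpf, Bub1, Aurka, Cenpa and Plk1, which are not shown, the CHR lies after the start. Of the 5 genes shown, Mki67 and Top2a passed the filter.

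Windows of 4 G1/S genes follow, with the E2F motif in capitals, where GCGGGAA is TTCCCGC read on the other strand.
Cdk2, chr10:128705043-128705072: gccagggaaacGCGGGAAggaggggcgggg
Mcm5, chr8:75109346-75109375: cgccaagaactTTCGCGCcaaaacgtccag
Mcm6, chr1:128359733-128359762: attggacgggtTTGGCGCgaagtagctcag
Rrm1, chr7:102441617-102441646: aggagaactcgTTCCCGCcaggtccgcttt
In Mcm5 and Mcm6 a further E2F motif on the other strand overlaps the one shown. These 4 genes had log2 fold changes of 0.56, -0.04, -0.40 and 0.00, none past an unadjusted p of 0.05.

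**Figure D5:**
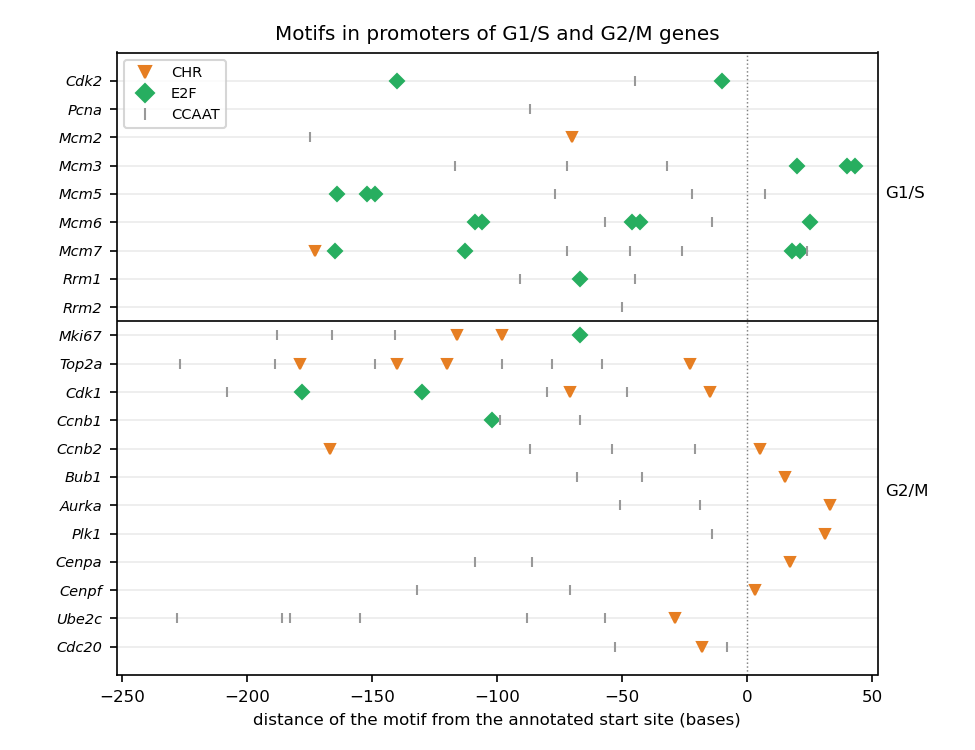
Positions of CHR (orange), E2F (green) and CCAAT (grey) matches are drawn by distance in bases from the annotated start, for the G1/S and G2/M genes with at least 1 match. CHR matches lie in 11 of 13 G2/M promoters. E2F matches lie in 7 of 13 G1/S promoters, which belong to 6 of 12 genes, so that some G1/S rows hold none.

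Among the inhibitors, which bind and block cyclin-dependent kinases, Cdkn1c (p57) stood out by its raw counts. It had 2, 0 and 4 counts in db/db 1, 2 and 3 and 45, 24 and 11 counts in db/m 1, 2 and 3, and the groups did not overlap. Pooled over the mice and scaled by library, its level was 9.34-fold lower in db/db islets (95% interval 4.11- to 26.2-fold, counting error only). Cdkn1c fell below the filter and was therefore not tested. When every gene with at least 1 count was tested, its log2 fold change was -3.06 (unadjusted p = 0.00206, adjusted p = 0.0528 from edgeR). The exact permutation test on CPM gave p = 0.1, the smallest possible. Per 1000 β-cell marker counts, Cdkn1c stood at 0.0639, 0 and 0.0504 in db/db 1, 2 and 3 and at 0.0653, 0.181 and 0.0745 in db/m 1, 2 and 3. On this scale no order of the groups is read, since db/db 1 lay just below db/m 1 with 2 counts, which is under the floor of 3. Cdkn1c spans chr7:143458339-143461050 of GRCm38 (minus strand), and 30.7% of its exon length is overlapped by Gm44732 on the other strand.

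Cdkn1a (p21), which p53 induces, varied widely between mice of the same group. Its level was 20.2, 40.2 and 29.4 CPM in db/db 1, 2 and 3, and 11.1, 45.0 and 6.12 CPM in db/m 1, 2 and 3. The control db/m 2 was the highest of all mice and the other controls the lowest, so that the groups overlapped. The log2 fold change was 0.54 with an interval from -0.70 to 1.77 (unadjusted p = 0.418, adjusted p = 0.723 from edgeR). Without db/m 2 it was 1.82, with an unadjusted p of 0.00180 from edgeR. That was the only 1 of the 15 alternatives with an unadjusted p under 0.05 for Cdkn1a, and the lowest adjusted p over the alternatives was 0.154. With all mice, the exact permutation test on CPM gave p = 0.6 (two-sided).

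Cdkn1b (p27), an inhibitor of resting cells, ranged from 13.6 to 22.0 CPM in db/db and from 19.8 to 25.9 CPM in db/m mice. Its means were 18.9 ± 4.65 CPM in db/db and 22.7 ± 3.09 CPM in db/m mice (SD, n = 3). The groups overlapped, and the log2 fold change was -0.26 with an interval from -0.76 to 0.24. On library size alone the groups of Cdkn1b did not overlap, and its unadjusted p was 0.027 from edgeR. Cdkn2c (p18), an inhibitor of Cdk4 and Cdk6, had 0.321, 0.837 and 0.740 CPM in db/db 1, 2 and 3 and 1.80, 1.22 and 0.921 CPM in db/m 1, 2 and 3. The groups did not overlap, but the log2 fold change of -1.04 (interval -2.15 to 0.08) had an unadjusted p of 0.101 and an adjusted p of 0.437 from edgeR. Cdkn2a, which encodes p16 and p19Arf and rises in aged islets, had 2 counts in db/db 3 and 0 counts in the other 5 mice. Per kb of exon, Cdkn1a (8.42 CPM in db/db and 5.83 CPM in db/m mice) and Cdkn1b (4.16 and 4.98 CPM) were far above Cdkn1c (0.0702 and 0.596 CPM).

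A further 171 cell cycle genes in 7 lists placed these results among their pathway. Of these, 106 were tested, 0 passed an adjusted p of 0.05 in edgeR, 7 were lower and 4 higher in db/db islets at an unadjusted p under 0.05, and their median log2 fold change was -0.14. Both counts are below the shares of all tested genes (9.89% lower and 5.04% higher). Detection again differed by phase, as 29 of 44 other replication genes but 11 of 46 other mitosis genes could be tested. Neither the mitosis list nor the 16 tested genes of the pocket proteins, E2F factors and MuvB complex held a gene at an unadjusted p under 0.05. Of the 18 tested ubiquitin ligase genes of the cycle, 3 were lower, the subunits of the anaphase-promoting complex Cdc23 (log2 fold change -0.87), Anapc7 (-0.70) and Anapc10 (-1.38), and 1 higher, its subunit Cdc16 (0.54), which stood at -0.062 on library size alone. Over all tested genes the shares were 9.89% lower and 5.04% higher, and nothing particular to this list is read from its counts.

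The smallest p-values among the 171 genes belonged to genes outside the replication and mitosis machinery. Btg2, an antiproliferative gene that p53 induces, had a log2 fold change of -2.10 (unadjusted p = 9.8e-04, adjusted p = 0.0743 from edgeR), and Plk3, a stress-induced kinase, one of -2.16 (adjusted p = 0.0911 from edgeR). Beside them, a list of 10 immediate-early genes, which are induced within minutes of a stimulus, was at 64.5 to 120 CPM in db/db and 931 to 1516 CPM in db/m mice, and the part of this in the values of Btg2 and Plk3 was not tested. Prlr, the prolactin receptor through which β cells are driven to divide in pregnancy, had 7.23, 24.5 and 18.7 CPM in db/db 1, 2 and 3 and 126, 58.2 and 53.6 CPM in db/m 1, 2 and 3. Its log2 fold change was -2.24 (adjusted p = 0.0819 from edgeR), and -0.026 with the β-cell score as a covariate. Serpinb1a, whose product promotes β-cell replication, was higher in db/db islets at an unadjusted p (log2 fold change 1.03, adjusted p = 0.219 from edgeR), and so was Nfatc1 (0.64, adjusted p = 0.252 from edgeR), a factor of calcineurin signalling. Serpinb1a stood at -0.29 with the β-cell score as a covariate, and the groups of Nfatc1 overlapped on library size alone. The replication genes Gins4 (0.93) and Orc6 (-1.29) had overlapping groups.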

How the data were processed

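Islet RNA-seq of 3 db/db and 3 db/m mice was analysed from raw counts per gene, which the authors deposited without normalization. The methods of the study name adaptor and quality trimming and mapping to mm10 with TopHat, whereas the submitters' processing notes name HISAT2 2.0.4. The counting program, annotation and strand setting are not given in the sources used here.

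Counts were tested in R 4.3.3 with edgeR 4.0.16 (filterByExpr, minimum count 10, TMM, quasi-likelihood test), and p-values were adjusted by Benjamini-Hochberg over 12760 genes, with a threshold of 0.05. Standard errors were derived from the log2 fold change and the F statistic. The script was checked on simulated counts. Two-sided exact permutation tests served for single values per mouse, on CPM or on the log2 of ratios to β-cell marker counts. All 40 genes are named. Of the 171 other genes, up to 12 with the smallest p under 0.05 and a mean of at least 1 CPM were to be named. Members and lists were chosen with earlier results of these data known. Marker scores were means of log2(CPM + 1). Exon lengths, overlaps and shared 50-base stretches came from GRCm38 with Python 3.11.15, promoters from RefSeq. Figures were drawn with matplotlib 3.10.9. Alternatives were DESeq2 1.42.0, other scalings and filters, marker scores as covariates, the replicate number as a block and leaving out each mouse.

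Within each group no library was a copy of another, since chi-square values per degree of freedom between libraries of a group were 26.5 to 147. The controls are described as littermates, no label pairs single mice, and p-values measure the spread between these 6 libraries. Circular RNAs were not analysed here.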

Additional observations from a re-analysis of the deposited data

How the results depend on the processing

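Under the 15 alternatives to the edgeR fit, the count of the 40 genes at an adjusted p under 0.05 was 0, except for 1 (Ccnd2) with DESeq2 and 1 (Ccnd2) when every gene with at least 1 count was tested. At an unadjusted p under 0.05 the count of 1 (14.93% of all tested genes in either direction) became 2 with DESeq2 (16.4%), 6 on library size alone (19.1%), 3 with every gene (12.4%), 2 with at least 10 counts in at least 3 mice (14.9%), 0 with the acinar score as a covariate (11.3%), 3 with the β-cell score, chosen after seeing the data (11.9%), and 1 to 4 when each mouse was left out in turn (10.8 to 19.8%). The gene added by the 10-count filter, Cdkn1c, passes it through the db/m mice alone. Cdkn1c is also among the genes counted without db/db 1, 2 or 3 and without db/m 3. There too it passes the filter through db/m mice alone, so these counts rest in part on a gene admitted by its higher group. Of the other cell cycle genes, 11 were at an unadjusted p under 0.05, 5 when the replicate number was a block, and 4 to 13 without a mouse. With that replicate block the count of the 40 genes stayed at 1 (Ccnd2, log2 fold change -1.16, unadjusted p = 0.0432 from edgeR). Same-numbered mice were not paired by any label, and the deviations of same-numbered mice correlated at -0.53, -0.18 and -0.32 across genes. The median log2 fold change of the G1/S genes was -0.73 on library size, 0.35 with the acinar score, 0.54 with the β-cell score, and -0.16 to 0.25 without a mouse. That of the G2/M genes tested was -1.21, 0.78 and 2.58, each over 2 genes, and -0.99 to 0.43 without a mouse. The highest value of each range was that without db/m 1. Leaving out a mouse changed which G2/M genes passed the filter. The -0.99 without db/m 2 is a median over 4 genes, and the 0.43 without db/m 1 over 2. Library size alone moved the median of all tested genes to -0.59. Of the 23 tested genes, the sign turned in 12 with the β-cell score, among them Ccnd2 (0.41), Mcm3 (2.21), Mcm5 (2.72) and Mki67 (3.22), in 9 with the acinar score, in 9 without db/m 1 and in 5 on library size. Of the other genes named, Serpinb1a (-0.29) and Orc6 (0.019) turned with the β-cell score and Cdc16 (-0.062) on library size. The causes were not tested. Of the 16 G2/M genes, 14 were under the filter, so that these settings say little of that phase.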
